A study of Mus musculus with 8 samples.

Results

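The myogenic transcription factors are a small set of DNA-binding proteins that set and keep the skeletal muscle program. Here 9 of their genes, of 27041 genes in the count table, were taken by symbol. They are the 4 myogenic bHLH factors *Myod1*, *Myf5*, *Myf6* and *Myog*, the satellite cell factor *Pax7*, the 3 Mef2 factors *Mef2a*, *Mef2c* and *Mef2d*, and the homeobox factor *Six4*. Poly(A) RNA of skeletal muscle from male mice was sequenced to ask what the loss of the lysine demethylase LSD1, encoded by *Kdm1a*, changes in gene expression. The labels give the tissue as skeletal muscle dissected in total, and the study names gastrocnemius. All mice were C57BL/6J, 9 weeks of age, and carried LSD1 L2/L2 alleles, in which LoxP sites flank exon 1. LSD1skm-/- mice also carried the HSA-Cre transgene, whose skeletal actin promoter is active in myofibers, so satellite cells, vessels, fibroblasts and other cells of these muscles were not targeted. Ctrl mice had the floxed alleles without the recombinase. The labels describe 4 libraries in each group. Counts of Ctrl replicates 1 to 4 and LSD1skm-/- replicates 1 and 2 were used, and LSD1skm-/- replicates 3 and 4 were not analysed here. Counts summed to between 32616912 and 41278769 per Ctrl library, and to 30654828 and 37788092 in the LSD1skm-/- libraries.

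As background, the myogenic bHLH factors bind short DNA words called E-boxes as pairs with E proteins. Myf5 and Myod1 commit cells to the lineage and are used by activated satellite cells, the stem cells beside the fiber that Pax7 marks. Myog drives differentiation and fusion, and Myf6 is the member kept on in mature fibers. Mef2 factors act together with the bHLH factors on muscle genes and are held silent by class IIa histone deacetylases. Six4 binds MEF3 sites together with Eya coactivators.

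The targeted gene was read first. *Kdm1a* had 793, 713 and 968 reads in Ctrl replicates 1 to 3, and 94 and 131 reads in LSD1skm-/- replicates 1 and 2. In the library labelled Ctrl replicate 4 there were 160 reads, so *Kdm1a* goes against its label. *Luzp1* lies over exons of *Kdm1a* on the opposite strand, and the strand setting of the counting is not given in the sources used here, so these counts are uncertain to that extent. In CPM, reads scaled to a common library size with edgeR's TMM method, that library had 3.66, near the 2.96 and 3.48 of the LSD1skm-/- libraries and far from the 22.0 to 28.1 of the other Ctrl libraries. Its log2 fold change had an estimate of -2.56 with a standard error (SE) of 0.74 (adjusted p = 0.557 in edgeR) with all libraries and -2.91 (SE 0.17, adjusted p = 0.000579 in edgeR) without the library labelled Ctrl replicate 4. Labels were kept as deposited, and the test of each factor is given with all 6 libraries and with the 5 that remain without the library labelled Ctrl replicate 4.

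The 9 factors differed by orders of magnitude in level. Levels between genes were compared as CPM per kilobase of exon, averaged over the 6 libraries. *Myf6* had the highest level per kilobase, 97.9 ± 23.0 (SD, n = 6). *Mef2d* at 34.4 ± 2.95 and *Mef2c* at 31.5 ± 6.92 CPM per kilobase followed (SD, n = 6), and their levels lay within each other's spread. *Mef2a* at 9.84 ± 1.29 and *Myod1* at 8.96 ± 2.24 CPM per kilobase formed the next pair, which also lay within its spread (SD, n = 6). Below them came *Myog* at 3.99 ± 0.841 and *Six4* at 1.96 ± 0.226 CPM per kilobase (SD, n = 6). *Myf5* at 0.716 ± 0.323 and *Pax7* at 0.470 ± 0.0966 CPM per kilobase were the lowest and were not separated by their spread (SD, n = 6). On this scale the factor of mature fibers stood at the top and the factors of satellite cells at the foot. The place of the Mef2 genes and of *Six4* depends on the length used, since their annotated exons add up to more than 1 transcript. With the longest coding transcript, *Mef2c* had 78.9 ± 17.3, *Mef2d* 38.1 ± 3.27 and *Mef2a* 26.1 ± 3.43 CPM per kilobase (SD, n = 6). *Mef2c* then lay within the spread of *Myf6* and was the higher in Ctrl replicate 2 (105 against 88.6). *Six4* then had 3.12 ± 0.359 CPM per kilobase (SD, n = 6), and its spread overlapped that of *Myog*.

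**Figure D1:**
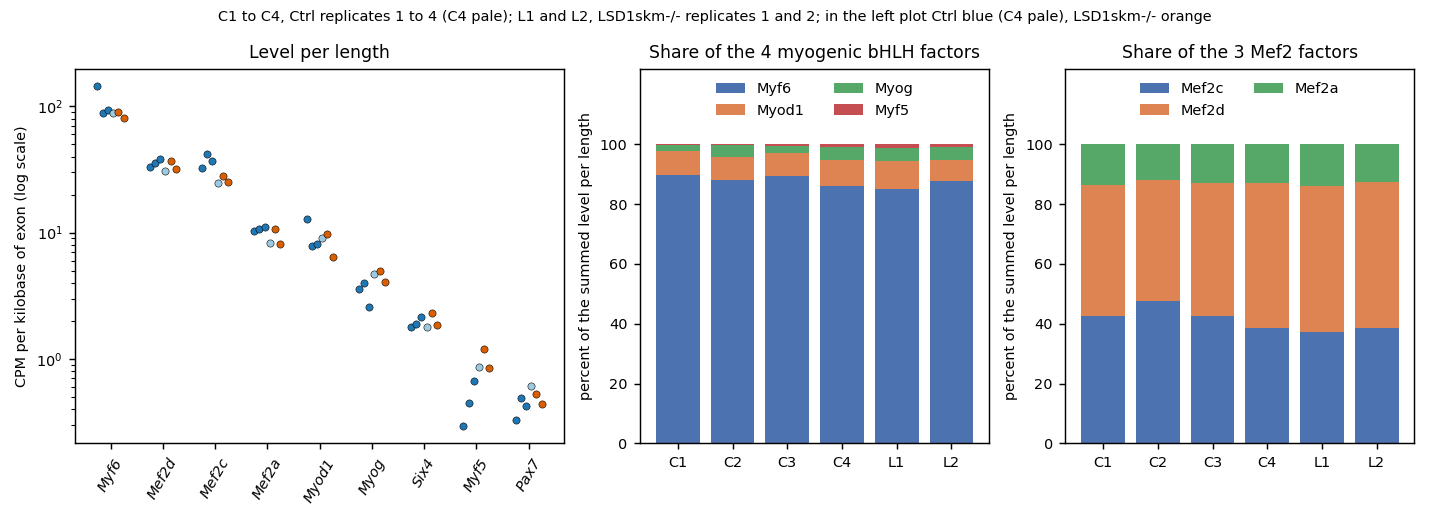
Left, level of each factor as CPM per kilobase of exon in each library, on a log axis; middle and right, the percent each factor contributes to the summed level per length of its family in each library. *Myf6* makes up 85.1% to 89.6% of the bHLH family in the 6 libraries, and *Mef2c* and *Mef2d* together make up most of the Mef2 family.

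All 9 factors had a mean count above 50 over the 6 libraries and were among the 11364 genes tested with edgeR's quasi-likelihood test. *Myf5* passed that filter only through the group where it was high, with a mean count of 44.2 in Ctrl and 72.5 in LSD1skm-/- muscle, and the same genes were tested in both comparisons. With all 6 libraries, 0 of the 9 had an adjusted p-value under 0.05 (edgeR, Benjamini-Hochberg over all genes tested), and 0% of all genes tested passed that threshold. At an unadjusted p under 0.05, 0 of the 9 and 8.9% of all genes tested (1011) were called. DESeq2 called 46 genes at an adjusted p under 0.05, and 0 of them were among the 9. Without the library labelled Ctrl replicate 4, 612 genes (5.39%) passed the adjusted threshold in edgeR and again 0 of the 9 did. At an unadjusted p under 0.05, 2 of the 9 (*Mef2c* and *Myf5*) and 20.2% of all genes tested (2292) were called in those 5 libraries. No conclusion is drawn from that count, since *Myf5* passed the filter only through the group where it was high. DESeq2 called 1056 genes at an adjusted p under 0.05 in the 5 libraries, *Mef2c* among them.

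The factors did not move in 1 direction. Their median log2 fold change (LSD1skm-/- minus Ctrl) was -0.01 with all libraries and -0.06 without the library labelled Ctrl replicate 4, beside -0.01 and -0.01 over all genes tested. In both comparisons 4 of the 9 had a value above 0 and 5 a value below 0. With all libraries the groups overlapped for each of the 9, while the LSD1skm-/- libraries lay above every Ctrl library for 9.8% of all genes tested and below every one for 8.02%. Without the library labelled Ctrl replicate 4, the LSD1skm-/- libraries lay above the Ctrl libraries for 2 of the 9 (*Myf5* and *Myog*), beside 20.3% of all genes tested, and below them for 1 of the 9 (*Mef2c*), beside 17.3%. No conclusion is drawn from the count of 2 either, since *Myf5* passed the filter only through the group where it was high.

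**Figure D2:**
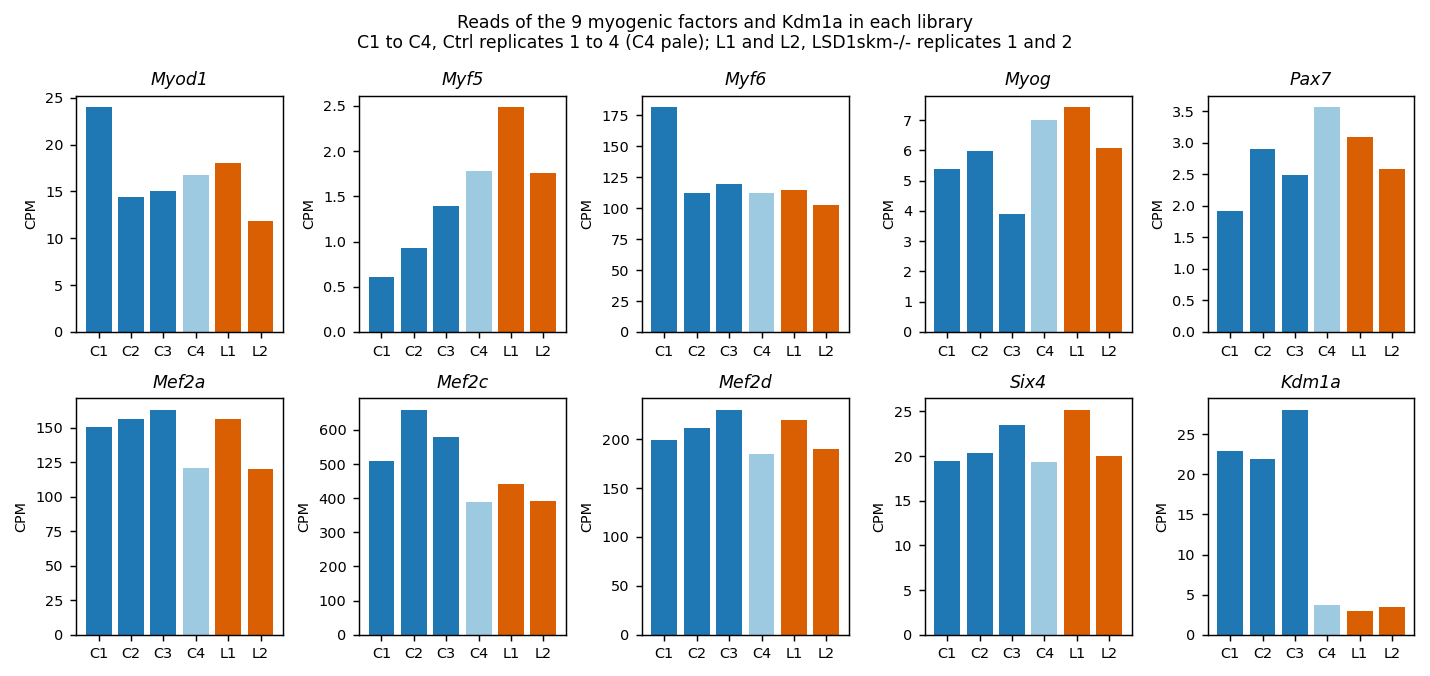
CPM of the 9 factors and of *Kdm1a* in each library, with Ctrl replicates 1 to 4 as C1 to C4 and LSD1skm-/- replicates 1 and 2 as L1 and L2. In *Kdm1a* the library labelled Ctrl replicate 4 (pale) stands with the LSD1skm-/- libraries, and in *Myf5* and *Mef2c* it lies nearer to them than to the mean of the other Ctrl libraries.

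*Myf5*, which marks committed satellite cells, showed the largest difference among the 9. It had 0.608, 0.924, 1.39 and 1.78 CPM in Ctrl replicates 1 to 4, and 2.49 and 1.75 CPM in LSD1skm-/- replicates 1 and 2. Ctrl replicate 1 was lowest, and the library labelled Ctrl replicate 4 exceeded LSD1skm-/- replicate 2 by a small margin, so the groups touched only through it. The log2 fold change was 0.84 (SE 0.41) with all libraries, with an unadjusted p of 0.0779 and an adjusted p of 0.565 in edgeR's quasi-likelihood test. In the 5 libraries left without the library labelled Ctrl replicate 4 it was 1.12 (SE 0.35), with an unadjusted p of 0.0147 and an adjusted p of 0.129 in the same test, and both LSD1skm-/- libraries lay above the 3 Ctrl libraries. The mean count of *Myf5* over those 5 libraries was 48.8, below the filter, which was set on all 6. These values rest on few reads, from 21 in Ctrl replicate 1 (95% Poisson interval 13 to 32.1) to 79 in LSD1skm-/- replicate 1 (62.5 to 98.5), and the intervals cover counting error only.

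*Pax7*, the factor that keeps satellite cells in their stem cell state, had 1.91, 2.90, 2.49 and 3.57 CPM in Ctrl replicates 1 to 4, and 3.09 and 2.58 CPM in the LSD1skm-/- libraries. The LSD1skm-/- values lay inside the Ctrl range, and the library labelled Ctrl replicate 4 was the highest of the 6. edgeR gave a log2 fold change of 0.06 (SE 0.28, adjusted p = 0.959) with all libraries and 0.22 (SE 0.23, adjusted p = 0.651) without the library labelled Ctrl replicate 4. The ratio of *Myf5* to *Pax7* reads within a library needs no scaling between libraries. Ctrl replicates 1 to 4 had ratios of 0.318, 0.319, 0.558 and 0.5, against 0.806 and 0.680 in the LSD1skm-/- libraries. Both LSD1skm-/- ratios were above each Ctrl ratio (exact two-sided permutation p = 0.133 with all libraries, of which 0.0667 is the smallest possible, and 0.3 after adjustment over the 6 ratios computed; 0.2 without the library labelled Ctrl replicate 4, and 0.3 after adjustment). In whole muscle, more satellite cells and more RNA per cell cannot be told apart, and the same holds for fewer cells and less RNA.

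Other satellite cell markers were read beside these factors. Without *Pax7* and *Myf5*, 12 markers were listed and 9 of them tested. Their summed level was 97.1, 89.6, 116 and 126 CPM in Ctrl replicates 1 to 4, and 120 and 123 CPM in the LSD1skm-/- libraries, with *Sdc4*, which other cells also express, as the most abundant gene and no marker at 0. Of the 9, 0 had an unadjusted p under 0.05 in edgeR with all libraries. In the 5 libraries other than the library labelled Ctrl replicate 4, 3 of the 9 had one, all with higher levels in LSD1skm-/- muscle, beside 20.2% of all genes tested, and 0 passed an adjusted p under 0.05 in edgeR. In both comparisons 5 of the 9 had a log2 fold change above 0 and 4 (*Cxcr4*, *Vcam1*, *Notch3* and *Spry1*) one below 0. The median log2 fold change of these 9 was 0.22 with all libraries and 0.31 without the library labelled Ctrl replicate 4, beside -0.01 and -0.01 over all genes tested. *Chrdl2* showed the smallest p of the list without the library labelled Ctrl replicate 4, with 1.33, 1.23, 1.74 and 3.41 CPM in Ctrl replicates 1 to 4 and 3.18 and 2.61 CPM in the LSD1skm-/- libraries (adjusted p = 0.0532 in edgeR, and 0.663 with all libraries). *Cdh15*, which encodes the satellite cell adhesion protein M-cadherin, was above every Ctrl library in both LSD1skm-/- libraries, with 24.4 and 25.1 CPM against 18.7 to 23.4. These genes were singled out after their values were seen. The part of satellite cell number in the *Myf5* values was not tested.

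*Myf6* lies next to *Myf5*, on the same minus strand of chromosome 10. Read along that strand, *Myf6* ends at 107492853 and *Myf5* starts at 107486134, with 6718 bases between them (GRCm38). The neighbours were not alike across libraries. *Myf6* had 182, 112, 119 and 112 CPM in Ctrl replicates 1 to 4, and 115 and 102 CPM in LSD1skm-/- replicates 1 and 2. Ctrl replicate 1 stood far above the other 5 libraries, which lay close together, and it was also the library with the least *Myf5*. The log2 fold change was -0.27 (SE 0.21, adjusted p = 0.683 in edgeR) with all libraries and -0.34 (SE 0.21, adjusted p = 0.424 in edgeR) without the library labelled Ctrl replicate 4.

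*Myod1*, the lineage factor of fast fibers and activated satellite cells, followed *Myf6* in that Ctrl replicate 1 was again highest. It had 24.0, 14.4, 15.0 and 16.8 CPM in Ctrl replicates 1 to 4, and 18.0 and 11.9 CPM in the LSD1skm-/- libraries. The LSD1skm-/- libraries stood on both sides of most Ctrl values. For *Myod1* the log2 fold change was -0.24 (SE 0.25, adjusted p = 0.767 in edgeR) with all libraries and -0.26 (SE 0.27, adjusted p = 0.647 in edgeR) without the library labelled Ctrl replicate 4. The ratio of *Myf6* to *Myod1* reads stayed between 6.36 and 8.64 over the 6 libraries.

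*Myog*, the differentiation factor, had 5.38, 5.98, 3.88 and 6.996 CPM in Ctrl replicates 1 to 4, and 7.44 and 6.09 CPM in the LSD1skm-/- libraries. LSD1skm-/- replicate 1 was the highest of all, and the library labelled Ctrl replicate 4 lay between both LSD1skm-/- libraries. For *Myog* the log2 fold change was 0.28 (SE 0.23, adjusted p = 0.702 in edgeR) with all libraries and 0.41 (SE 0.21, adjusted p = 0.334 in edgeR) without the library labelled Ctrl replicate 4.

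The shares of the 4 bHLH factors were compared next. Of their summed level per length, *Myf6* made up 88.2 ± 1.66% (SD, n = 4) in Ctrl and 86.5 ± 1.88% (SD, n = 2) in LSD1skm-/- muscle. *Myod1* made up 8.02 ± 0.495% (SD, n = 4) and 7.99 ± 1.54% (SD, n = 2). The shares of *Myog* were 2.24%, 3.97%, 2.46% and 4.53% over the Ctrl libraries in order, against 4.67% and 4.41% in the LSD1skm-/- libraries. The shares of *Myf5* were 0.181%, 0.440%, 0.632% and 0.83% in Ctrl and 1.12% and 0.912% in LSD1skm-/- muscle, where both exceeded every Ctrl share. Exact two-sided permutation tests gave p = 0.133 for the *Myf5* share and 0.2 for the *Myf6* and *Myog* shares with all libraries. With 4 against 2 libraries such a test cannot go below 0.0667, and without the library labelled Ctrl replicate 4 it cannot go below 0.1, the value the *Myf5* share then had.

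Of the Mef2 factors, *Mef2c* showed the larger difference. It had 508, 660, 580 and 389 CPM in Ctrl replicates 1 to 4, and 440 and 392 CPM in LSD1skm-/- replicates 1 and 2. The library labelled Ctrl replicate 4 was the lowest of the 6, and the other Ctrl libraries were all above both LSD1skm-/- libraries. For *Mef2c* the log2 fold change was -0.36 (SE 0.20) with all libraries, with an unadjusted p of 0.117 and an adjusted p of 0.603 in edgeR. In the 5 libraries left without the library labelled Ctrl replicate 4 it was -0.48 (SE 0.14), with an unadjusted p of 0.00916 and an adjusted p of 0.101 in edgeR. DESeq2 gave an adjusted p of 0.0137 for the same 5 libraries, so the side of the threshold depended on the tool. The lowest number of *Mef2c* reads was 13979, in LSD1skm-/- replicate 1.

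*Mef2a* and *Mef2d* differed less. *Mef2d* had 199, 211, 230 and 185 CPM in Ctrl replicates 1 to 4, and 220 and 190 CPM in the LSD1skm-/- libraries, which lay inside the Ctrl range (log2 fold change -0.01, SE 0.12, adjusted p = 0.979 in edgeR). *Mef2a* had 151, 156, 163 and 121 CPM in Ctrl and 156 and 120 CPM in LSD1skm-/- muscle. Lowest were the library labelled Ctrl replicate 4 and LSD1skm-/- replicate 2 (log2 fold change -0.10, SE 0.16, adjusted p = 0.851 in edgeR with all libraries). In the 5 libraries other than the library labelled Ctrl replicate 4, the log2 fold changes were -0.06 (SE 0.12, adjusted p = 0.823) for *Mef2d* and -0.18 (SE 0.13, adjusted p = 0.499) for *Mef2a*, both from edgeR. *Lysmd4* lies over exons of *Mef2a*, and an antisense gene over exons of *Mef2d*, each on the opposite strand. The libraries keep the strand, but the strand setting of the counting is not given in the sources used here, so both counts are uncertain to that extent.

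The ratio of *Mef2c* to *Mef2d* reads, which needs no scaling, was 2.55, 3.12, 2.52 and 2.10 over the Ctrl libraries in order, against 2.004 and 2.07 in LSD1skm-/- replicates 1 and 2. The LSD1skm-/- libraries had the lowest pair of ratios, with the library labelled Ctrl replicate 4 next to them. The exact two-sided permutation p was 0.2 with all libraries and 0.1, the smallest possible, without that library (0.3 in both after adjustment over the 6 ratios). In the summed Mef2 level per length, *Mef2c* made up 42.9 ± 3.68% (SD, n = 4) in Ctrl and 37.8 ± 0.939% (SD, n = 2) in LSD1skm-/- muscle, while *Mef2d* made up 44.2 ± 3.38% (SD, n = 4) and 48.8 ± 0.0910% (SD, n = 2). Ctrl replicates 1 to 3 alone had shares of 44.3 ± 2.93% for *Mef2c* and 42.8 ± 2.33% for *Mef2d* (SD, n = 3). Both LSD1skm-/- shares of *Mef2c* (37.2% and 38.5%) were below every Ctrl share, of which the library labelled Ctrl replicate 4 had the lowest (38.7%), and the exact two-sided permutation p was 0.2 with all libraries and 0.1, the smallest possible, without that library.

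**Figure D3:**
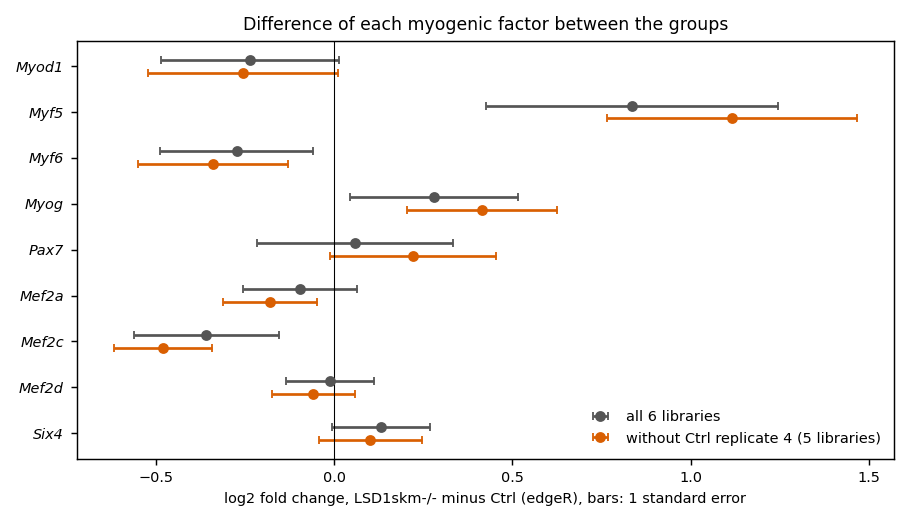
Log2 fold change of each factor, LSD1skm-/- minus Ctrl, with 1 standard error on each side, from edgeR with all 6 libraries (grey) and without the library labelled Ctrl replicate 4 (orange). *Myf5* lies highest at 0.84 and 1.12, *Mef2c* lowest at -0.36 and -0.48, and *Mef2d* nearest to 0 at -0.01 and -0.06.

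Endothelial cells also use *Mef2c*, and their markers were read beside it. The 7 endothelial markers summed to 249, 238, 274 and 280 CPM in Ctrl replicates 1 to 4, and to 209 and 200 CPM in the LSD1skm-/- libraries. *Flt1* was the most abundant and no marker was at 0. All 7 had log2 fold changes below 0 in both comparisons, 2 of them (*Cdh5* and *Pecam1*) with an unadjusted p under 0.05 in edgeR with all libraries, beside 8.9% of all genes tested, and 3 without the library labelled Ctrl replicate 4, beside 20.2%, and 0 had an adjusted p under 0.05 in either. The library labelled Ctrl replicate 4 had the highest endothelial sum and the lowest *Mef2c* of the 6. The part of endothelial cells in the *Mef2c* difference was not tested.

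The partners of the Mef2 factors held no gene past an adjusted p of 0.05. Of 15 listed regulators, 14 were tested, and in edgeR 1 had an unadjusted p under 0.05 with all libraries, beside 8.9% of all genes tested, and 4 without the library labelled Ctrl replicate 4, beside 20.2%. Of those 4, 3 were lower in LSD1skm-/- muscle and 1, *Mamstr*, was higher. The log2 fold change of *Mamstr* was 0.41 (SE 0.39, adjusted p = 0.740 in edgeR) with all libraries and 0.77 (SE 0.27, adjusted p = 0.165 in edgeR) without that library. The median log2 fold change of the 14 was -0.07 with all libraries and -0.04 without the library labelled Ctrl replicate 4. *Hdac5*, a class IIa deacetylase that holds Mef2 factors silent, had 53.3, 48.9, 57.0 and 48.2 CPM in Ctrl replicates 1 to 4, and 46.3 and 38.8 CPM in the LSD1skm-/- libraries, both below every Ctrl library. Its log2 fold change was -0.29 (SE 0.12, adjusted p = 0.557 in edgeR) with all libraries and -0.32 (SE 0.12, adjusted p = 0.207 in edgeR) without the library labelled Ctrl replicate 4. The most abundant genes of the list, the Mef2 target and methyltransferase gene *Smyd1* and the calcineurin subunit genes *Ppp3ca* and *Ppp3cb*, had log2 fold changes of 0.05, -0.28 and -0.30 with all libraries (adjusted p from 0.558 to 0.886 in edgeR). Their values were 0.07, -0.34 and -0.42, with adjusted p-values of 0.742, 0.161 and 0.0708 in edgeR, without the library labelled Ctrl replicate 4. *Ppp3cb* then had the smallest unadjusted p of the list (0.00495), and for both calcineurin genes the LSD1skm-/- libraries lay below the 3 Ctrl libraries.

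The dimer partners and inhibitors of the bHLH factors were next. *Tcf3*, which encodes the E proteins E12 and E47, had 11.6, 12.4, 11.3 and 11.3 CPM in Ctrl replicates 1 to 4, and 7.85 and 9.31 CPM in the LSD1skm-/- libraries. Here the library labelled Ctrl replicate 4 stood with the other Ctrl libraries, and the groups did not overlap. Its log2 fold change was -0.44 (SE 0.13, unadjusted p = 0.00878, adjusted p = 0.557 in edgeR's quasi-likelihood test) with all libraries, and -0.45 (SE 0.13, unadjusted p = 0.00857, adjusted p = 0.0974 in edgeR) without the library labelled Ctrl replicate 4. The other E protein genes, *Tcf4* and *Tcf12*, had log2 fold changes of -0.13 and -0.19 with all libraries (adjusted p = 0.659 and 0.661 in edgeR) and of -0.11 and -0.22 without the library labelled Ctrl replicate 4 (adjusted p = 0.590 and 0.436). Of the 3 E protein genes, 1 had an unadjusted p under 0.05 in each comparison (beside 8.9% and 20.2% of all genes tested) and 0 an adjusted one in edgeR, with a median log2 fold change of -0.19 with all libraries and -0.22 without the library labelled Ctrl replicate 4.

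Of 16 genes for inhibitors of bHLH factors, such as the Id, Hey and Twist proteins, 10 were tested. In edgeR 0 of them had an unadjusted p under 0.05, and 0 an adjusted one, with or without the library labelled Ctrl replicate 4. Their median log2 fold change was -0.18 with all libraries and -0.17 without it, beside -0.01 and -0.01 over all genes tested. *Bhlhe40*, *Bhlhe41* and *Zeb1* were the most abundant, with log2 fold changes of -0.15, -0.09 and -0.20 with all libraries and of -0.16, 0.03 and -0.22 without that library.

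*Six4* had 19.4, 20.4, 23.4 and 19.3 CPM in Ctrl replicates 1 to 4, and 25.2 and 19.99 CPM in LSD1skm-/- replicates 1 and 2. LSD1skm-/- replicate 1 was the highest library and LSD1skm-/- replicate 2 lay inside the Ctrl range. For *Six4* the log2 fold change was 0.13 (SE 0.14, adjusted p = 0.766 in edgeR) with all libraries and 0.10 (SE 0.14, adjusted p = 0.745 in edgeR) without the library labelled Ctrl replicate 4.

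Genes that work with Six4 showed larger differences. Of 18 such genes listed, *Six4* not among them, 17 were tested. With all libraries 3 had an unadjusted p under 0.05 in edgeR, all lower in LSD1skm-/- muscle (*Eya1*, *Eya4* and *Tead1*; beside 8.9% of all genes tested), and 0 an adjusted one. Without the library labelled Ctrl replicate 4, *Eya1* and *Eya4* fell and *Vgll3* and *Wwtr1* rose at an adjusted p under 0.05 (edgeR), 4 of 17 beside 5.39% of all genes tested. Their median log2 fold change was 0.11 and 0.21, with and without that library.

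*Eya4*, a coactivator and phosphatase partner of Six4 and its relatives, had 60.7, 69.2, 69.7 and 52.3 CPM in Ctrl replicates 1 to 4, and 47.8 and 34.9 CPM in the LSD1skm-/- libraries. *Eya1* had 29.6, 32.5, 29.7 and 24.99 CPM in Ctrl and 22.6 and 20.5 CPM in LSD1skm-/- muscle. Both LSD1skm-/- libraries were below every Ctrl library for both genes, with the library labelled Ctrl replicate 4 as the lowest Ctrl library each time. The log2 fold change of *Eya4* was -0.61 (SE 0.17, adjusted p = 0.557 in edgeR) with all libraries and -0.68 (SE 0.15, adjusted p = 0.0499 in edgeR) without it, and that of *Eya1* -0.44 (SE 0.13, adjusted p = 0.557 in edgeR) and -0.50 (SE 0.11, adjusted p = 0.0418 in edgeR). *Tead1*, the most abundant gene of the list, had a log2 fold change of -0.36 (SE 0.14, adjusted p = 0.557 in edgeR) with all libraries and -0.41 (SE 0.13, adjusted p = 0.135 in edgeR) without that library. *Vgll2*, another abundant gene of the list, had log2 fold changes of 0.19 with all libraries and 0.21 without that library.

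*Vgll3*, a cofactor of Tead factors, had 3.96, 3.697, 5.94 and 10.5 CPM in Ctrl replicates 1 to 4, and 11.2 and 11.3 CPM in the LSD1skm-/- libraries. *Wwtr1*, which encodes the coactivator TAZ, had 24.2, 25.2, 25.2 and 37.7 CPM in Ctrl and 34.1 and 35.2 CPM in LSD1skm-/- muscle. For both, the library labelled Ctrl replicate 4 stood with the LSD1skm-/- libraries and was above them for *Wwtr1*. The log2 fold change of *Vgll3* was 0.89 (SE 0.39, adjusted p = 0.557 in edgeR) with all libraries and 1.31 (SE 0.21, adjusted p = 0.0151 in edgeR) without that library. That of *Wwtr1* was 0.30 (SE 0.19, adjusted p = 0.624 in edgeR) and 0.48 (SE 0.09, adjusted p = 0.0302 in edgeR). With a further library left out, *Wwtr1* and *Eya1* lost their calls in each of the 5 fits, *Eya4* in 4 of them (all but that without LSD1skm-/- replicate 1) and *Vgll3* in 3 (without Ctrl replicate 1 or either LSD1skm-/- library), with adjusted p-values in edgeR of 0.0555 to 0.215 where calls were lost.

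**Figure D4:**
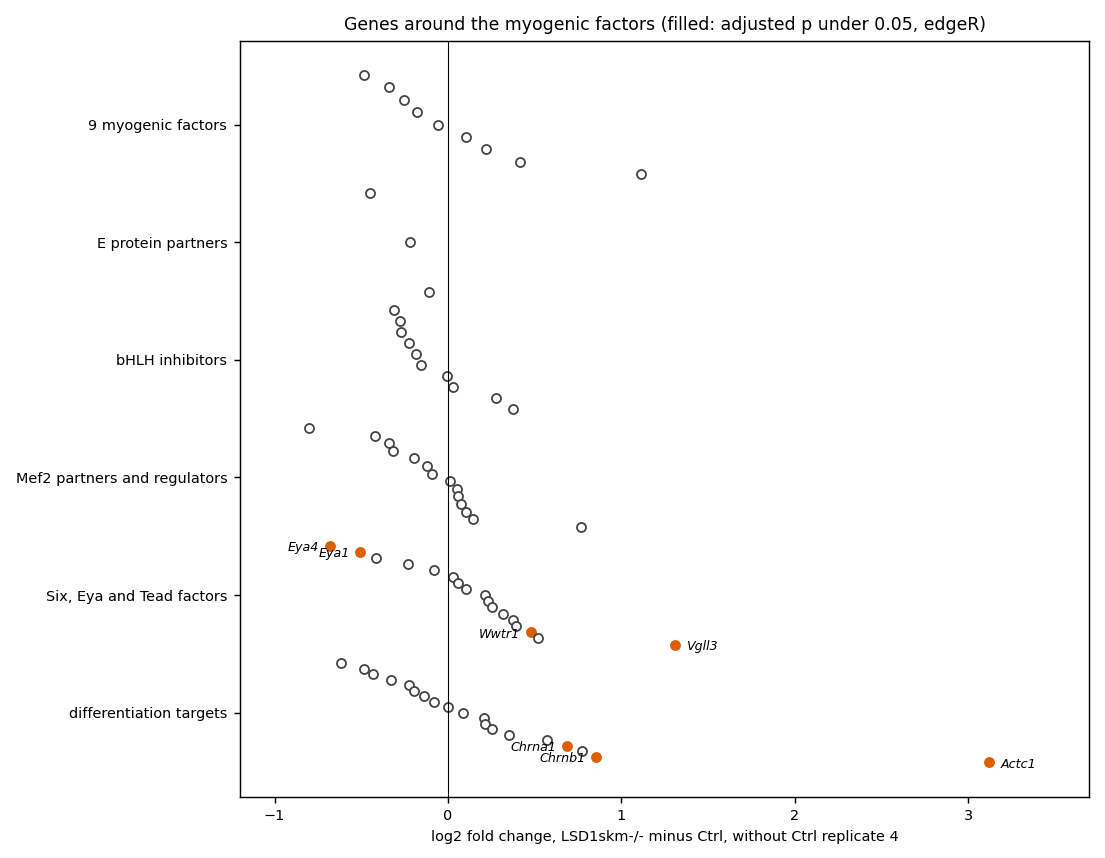
Log2 fold change, LSD1skm-/- minus Ctrl without the library labelled Ctrl replicate 4, of the 9 factors and the tested genes of 5 lists around them, each point 1 gene. Filled points passed an adjusted p under 0.05 in edgeR, 0 of the 9 factors among them, and *Actc1* lies farthest from 0 at 3.12.

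Genes that the myogenic factors switch on in differentiation were listed as targets. Of 22 listed, 19 were tested, and with all libraries 1 (*Chrnd*) had an unadjusted p under 0.05, beside 8.9% of all genes tested, and 0 an adjusted one in edgeR. In the 5 libraries other than the library labelled Ctrl replicate 4, 3 of the 19 rose at an adjusted p under 0.05 (*Actc1*, *Chrna1* and *Chrnb1*) and 0 fell, beside 5.39% of all genes tested in either direction. The median log2 fold change of the 19 was 0.00 with all libraries and 0.09 without it. The most abundant targets, *Acta1*, *Ckm* and *Des*, had log2 fold changes of -0.03, 0.10 and -0.24 with all libraries and adjusted p-values from 0.655 to 0.957 in edgeR. Their log2 fold changes were 0.00, 0.09 and -0.33 in the 5 libraries other than the library labelled Ctrl replicate 4, and *Des* had an unadjusted p of 0.0391 (adjusted p = 0.219 in edgeR). *Mymk*, which encodes the fusion protein myomaker, was at 0 reads in Ctrl replicate 3 and under 1 CPM in the other 5, and was not tested.

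*Actc1*, the cardiac actin gene that fetal muscle also uses, had 299, 600, 258 and 3132 CPM in Ctrl replicates 1 to 4, and 2384 and 4331 CPM in LSD1skm-/- replicates 1 and 2. Between the LSD1skm-/- libraries lay the library labelled Ctrl replicate 4. Its log2 fold change was 1.65 (SE 0.94, adjusted p = 0.606 in edgeR) with all libraries and 3.12 (SE 0.39, adjusted p = 0.00616 in edgeR) without it. Without LSD1skm-/- replicate 2 as well the adjusted p was 0.0573 in edgeR. A gene on the opposite strand lies over *Actc1* exons, with the same uncertainty of strand as above. *Myh3*, the embryonic myosin gene, had 4.95, 5.85, 8.64 and 6.29 CPM in Ctrl and 4.92 and 4.33 CPM in LSD1skm-/- muscle.

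The acetylcholine receptor of the neuromuscular junction is a classic set of bHLH targets, and those of its subunit genes that were tested were read 1 by 1. *Chrna1*, the alpha subunit gene, had 15.9, 16.1, 12.3 and 26.2 CPM in Ctrl replicates 1 to 4, and 23.1 and 24.3 CPM in the LSD1skm-/- libraries. *Chrnb1*, the beta subunit gene, had 33.1, 29.5, 28.3 and 68.9 CPM in Ctrl and 51.5 and 58.0 CPM in LSD1skm-/- muscle. For both genes the library labelled Ctrl replicate 4 was the highest of the 6 and the other Ctrl libraries were below the LSD1skm-/- libraries. *Chrnd*, the delta subunit gene, had 2.23, 1.85, 2.174 and 2.24 CPM in Ctrl and 3.72 and 3.40 CPM in LSD1skm-/- muscle, and here the library labelled Ctrl replicate 4 stood with the other Ctrl libraries. *Chrne*, the subunit gene of the adult junction, had 12.5, 11.9, 12.5 and 13.2 CPM in Ctrl and 13.2 and 10.1 CPM in LSD1skm-/- muscle, so the groups overlapped.

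In the 5 libraries that remain when the library labelled Ctrl replicate 4 is left out, the log2 fold changes were 0.69 (SE 0.14, adjusted p = 0.0367) for *Chrna1*, 0.86 (SE 0.11, adjusted p = 0.00694) for *Chrnb1* and 0.77 (SE 0.19, adjusted p = 0.0621) for *Chrnd*, all from edgeR. With all libraries they were 0.42, 0.45 and 0.74, with adjusted p-values of 0.630, 0.683 and 0.557 in edgeR, and *Chrnd* had an unadjusted p of 0.00491. *Chrne* had log2 fold changes of -0.11 with all libraries and -0.08 without that library. Leaving out a further library ended the call of *Chrna1* in 4 of 5 fits (all but that without Ctrl replicate 2) and that of *Chrnb1* without LSD1skm-/- replicate 2.

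**Figure D5:**
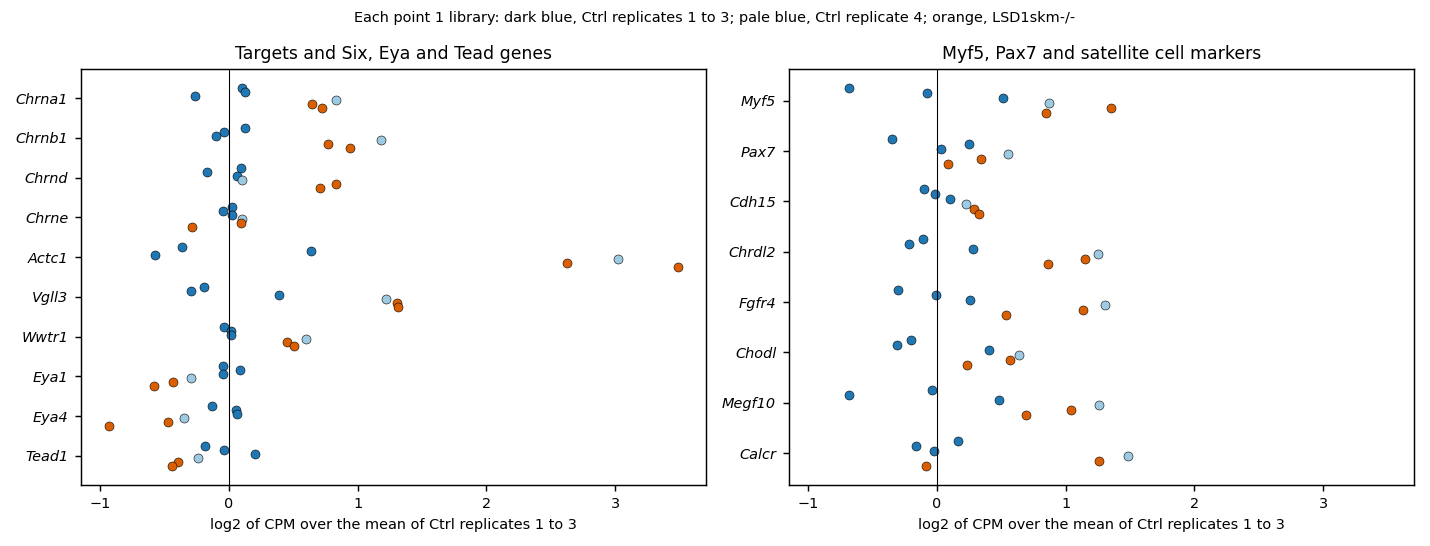
Log2 of the CPM of each library over the mean of Ctrl replicates 1 to 3, for target and cofactor genes (left) and for *Myf5*, *Pax7* and satellite cell markers (right). The library labelled Ctrl replicate 4 (pale) lies with the LSD1skm-/- libraries (orange) in *Chrna1*, *Chrnb1*, *Actc1*, *Vgll3* and *Wwtr1*, but with Ctrl replicates 1 to 3 in *Chrnd*.

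The sequences before these start sites show the words the factors read. Promoters are from RefSeq on GRCm38.p6, printed 5' to 3' on the gene's strand for the 250 bases before the start, with E-boxes (CANNTG) and MEF3 sites (TCAGGTTTC) in capitals. Windows of 7 of the 9 factors were matched (*Myf5*, *Myog*, *Pax7*, *Mef2a*, *Mef2c*, *Mef2d* and *Six4*). On both strands, 66.2% of 32851 promoters hold a CANNTG, 13% hold CAGCTG, the form preferred by Myod1 (itself a CANNTG), and 0.387% hold TCAGGTTTC. *Myog* is shown because its window holds words of both the bHLH and the Six4 family, 2 E-boxes and a MEF3 site that starts at -84, and 3 receptor genes because *Chrna1* and *Chrnb1* passed the adjusted threshold without the library labelled Ctrl replicate 4 and *Chrne* did not, a difference between subunits that was not tested. The *Chrna1* window holds 3 E-boxes, 2 of them CAGCTG, that of *Chrnb1* holds 3 of other forms, and that of *Chrne* holds 1, a CAGCTG. *Six4* itself has a MEF3 match on the reverse strand, at -99, in 1 of its 2 windows and none in the other. Matches describe letters and do not show binding, and their absence says only that a window lacks these letters.
Myog, chr1:134289754-134290003, plus strand: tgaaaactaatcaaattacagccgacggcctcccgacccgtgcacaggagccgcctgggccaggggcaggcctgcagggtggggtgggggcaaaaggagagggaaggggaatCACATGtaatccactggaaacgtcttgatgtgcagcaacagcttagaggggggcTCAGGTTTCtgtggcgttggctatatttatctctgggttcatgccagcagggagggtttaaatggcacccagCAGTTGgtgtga
Chrna1, chr2:73580339-73580588, minus strand: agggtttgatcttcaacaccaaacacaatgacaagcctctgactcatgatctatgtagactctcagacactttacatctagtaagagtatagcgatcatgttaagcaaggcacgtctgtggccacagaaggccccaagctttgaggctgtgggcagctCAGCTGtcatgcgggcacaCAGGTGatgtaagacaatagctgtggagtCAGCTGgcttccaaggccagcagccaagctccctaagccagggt
Chrnb1, chr11:69795938-69796187, minus strand: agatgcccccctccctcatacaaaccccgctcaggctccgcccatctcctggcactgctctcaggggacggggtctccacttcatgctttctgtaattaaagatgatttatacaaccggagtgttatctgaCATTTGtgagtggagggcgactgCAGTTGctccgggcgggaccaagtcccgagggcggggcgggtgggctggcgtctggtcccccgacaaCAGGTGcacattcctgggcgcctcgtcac
Chrne, chr11:70619195-70619444, minus strand: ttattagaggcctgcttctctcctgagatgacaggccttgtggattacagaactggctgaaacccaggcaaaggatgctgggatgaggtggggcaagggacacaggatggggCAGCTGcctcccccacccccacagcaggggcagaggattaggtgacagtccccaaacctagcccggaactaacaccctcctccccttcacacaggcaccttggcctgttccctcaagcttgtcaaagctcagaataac

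The make-up of the muscle itself was read from further marker lists. The 10 myofiber markers summed to 165695, 158922, 178083 and 149699 CPM in Ctrl replicates 1 to 4, and to 144325 and 146096 CPM in LSD1skm-/- muscle, with *Myh4* of fast glycolytic fibers as the most abundant gene. The library labelled Ctrl replicate 4 and the LSD1skm-/- libraries formed the low end. The slow myosin gene *Myh7* had 247, 242, 510 and 222 CPM in Ctrl and 35.3 and 86.5 CPM in LSD1skm-/- muscle (log2 fold change -2.32, SE 0.49, adjusted p = 0.557 in edgeR with all libraries, and -2.45, SE 0.48, adjusted p = 0.0313 without the library labelled Ctrl replicate 4). Of its exon stretches of 50 bases, 15.6% also occur in other genes, and reads from them would not align to 1 place only. For *Myh4* this share was 18.9%.

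Fibroblast markers, of which 2 of 7 rose at an adjusted p under 0.05 in edgeR without the library labelled Ctrl replicate 4 (5.39% of all genes tested were called) and 0 with all libraries, summed to 440, 422, 449 and 648 CPM in Ctrl replicates 1 to 4 and to 577 and 683 CPM in LSD1skm-/- muscle, with *Dcn* as the most abundant. At an unadjusted p under 0.05 in edgeR, 3 of 7 fibroblast markers were higher with all libraries, beside 8.9% of all genes tested. Without the library labelled Ctrl replicate 4, 6 of 7 were, beside 20.2%. Ctrl replicates 1 to 3 were the low libraries of the fibroblast sum, as they were for *Myf5* and *Chrdl2*. Blood markers summed to 43.7, 28.2, 36.6 and 52.2 CPM in Ctrl and to 64.1 and 65.8 CPM in LSD1skm-/- muscle, with *Hbb-bs* as the most abundant. Of these 5 markers, 2 rose at an adjusted p under 0.05 in edgeR without the library labelled Ctrl replicate 4, and 0 with all libraries. *Alas2*, 1 of the 2, passed the filter on low counts only through the group where it was high (mean count 48.8 in Ctrl and 72.5 in LSD1skm-/- muscle). The counts of this list are therefore not set against that of all genes. At an unadjusted p under 0.05 in edgeR, 4 of 5 blood markers were higher with all libraries and 5 of 5 without the library labelled Ctrl replicate 4. In the globin genes of this list, 53.2% (*Hbb-bs*) to 89.3% (*Hba-a2*) of exon stretches of 50 bases also occur in other genes. Reads from them would not align to 1 place only. Adipocyte markers summed to 97.7, 98.3, 6.09 and 137 CPM in Ctrl and to 2.93 and 8.77 CPM in LSD1skm-/- muscle, with *Cfd* as the most abundant gene. Ctrl replicate 3 thus stood with the LSD1skm-/- libraries for fat cell genes, and 5 of 5 tested adipocyte markers had an unadjusted p under 0.05 with all libraries, with 0 at an adjusted p under 0.05 in edgeR in either comparison. Of these, 4 (*Adipoq*, *Plin1*, *Cidec* and *Retn*) passed the filter on low counts only through Ctrl, where they were high, so their count is not set against that of all genes.

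The lists of 6 macrophage and 5 smooth muscle and pericyte markers held 0 genes with an adjusted p under 0.05 in edgeR in either comparison, and 1 gene each (of 6 and 4 tested) with an unadjusted one with all libraries. For smooth muscle and pericyte markers this stands beside 8.9% of all genes tested. *Adgre1*, a macrophage marker, passed the filter on low counts only through the group where it was high (mean count 47.25 in Ctrl and 67 in LSD1skm-/- muscle). The macrophage count is therefore not set against that of all genes. Macrophage markers summed to 42.4, 33.1, 20.8 and 32.1 CPM in Ctrl replicates 1 to 4 and to 30.1 and 48.3 CPM in LSD1skm-/- muscle, led by *C1qa*. Smooth muscle and pericyte markers summed to 327, 276, 369 and 392 CPM in Ctrl and to 325 and 284 CPM in LSD1skm-/- muscle, led by *Rgs5*. Neither of these sums separated the groups, and the part of any of these cells in the values of the 9 factors was not tested.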

How the data were processed

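Poly(A) RNA was read by the authors from 1 end over 50 bases, and the reads were demultiplexed with bcl2fastq (version 2.20.0.422 in the submitters' processing notes), mapped to mm10, limited to unique alignments and deposited as whole-number counts per gene, not normalized. For the mapping the study gives htseq-count and for the quantification HOMER. An aligner and the strand setting of the counting are not given in the sources used here. No column outside the 6 labelled libraries was present. Labels grouped the libraries, and no source read here says that each is a separate animal, so p-values measure the spread between these libraries.

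Genes with a mean count above 50 entered edgeR 4.0.16 with its quasi-likelihood test, TMM factors and no covariate, in R 4.3.3, with Benjamini-Hochberg adjustment over all 11364 genes tested. Standard errors were obtained as the size of the fold change over the root of its F statistic. DESeq2 1.42.0 and the settings of the closing section were alternatives, and those run without the library labelled Ctrl replicate 4 were added after seeing the data. The test was tried on simulated counts before use. The design assumed 4 libraries per group, and 2 LSD1skm-/- libraries had counts. Positions, exon lengths and shared stretches of 50 bases came from GENCODE vM21 (GRCm38). Single values were compared with exact two-sided permutation tests.

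The members and gene lists were chosen with earlier results of these data known. All 9 factors and *Kdm1a* were named, and of each list the genes with an unadjusted p under 0.05 with all libraries or an adjusted p under 0.05 without the library labelled Ctrl replicate 4, at most 8 a list, and the 3 most abundant, save those not used here. Other genes were named after their values were seen.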

Additional observations from a re-analysis of the deposited data

Results flagged for a closer look

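Among the 4 Ctrl libraries, 1 library stood apart from the other 3 in 4 of 28 items checked (21 genes and 7 shares), all 4 of them genes. Its distance to the nearest other library, divided by the whole range on the log2 CPM scale, was 0.871 for *Myf6*, where Ctrl replicate 1 was high, and 0.879 for *Kdm1a*, where the library labelled Ctrl replicate 4 was low. It was 0.91 for *Wwtr1*, where the library labelled Ctrl replicate 4 was high. It was 0.843 for *Chrnd*, where Ctrl replicate 2 was low by a small amount, at 1.85 CPM against 2.174 to 2.24 in the others. Chance gives a value this large in about 1 of 20 groups.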

How the results depend on the processing

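The direction of *Myf5*, *Myog*, *Myf6* and *Mef2c* held under every setting run, and the other 5 factors changed sign under some. Over all alternatives the log2 fold change ran from 0.56 to 1.46 for *Myf5*, 0.12 to 0.42 for *Myog*, -0.40 to -0.076 for *Myf6* and -0.48 to -0.24 for *Mef2c* with all libraries, and from 0.84 to 1.47, 0.25 to 0.55, -0.47 to -0.090 and -0.58 to -0.38 without the library labelled Ctrl replicate 4. Leaving out 1 of all 6 libraries at a time gave log2 fold changes from -0.57 to 0.035 for *Myod1*, -0.083 to 0.22 for *Pax7*, -0.30 to 0.078 for *Mef2a*, -0.13 to 0.091 for *Mef2d* and -0.051 to 0.29 for *Six4*. Without the library labelled Ctrl replicate 4, leaving out a further one gave -0.60 to 0.017 for *Myod1*, -0.18 to 0.042 for *Mef2d* and -0.085 to 0.26 for *Six4*. Scaling by library size alone turned *Mef2d* to 0.031 with all libraries and 0.013 without that library.

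With all libraries, the count of genes with an adjusted p under 0.05 was 149 with no filter beyond 1 count, 46 in DESeq2 and 0 to 612 with 1 library left out, the highest without the library labelled Ctrl replicate 4. At an unadjusted p under 0.05 it was 2189 with no such filter and 391 to 2292 with 1 library left out, and the count of factors was 2 and 0 to 2. *Kdm1a* passed an adjusted p of 0.05 with no such filter (0.00414), and failed in DESeq2 (0.138), with a range of 3.63e-07 to 0.947 over its alternatives.

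Without the library labelled Ctrl replicate 4, 1894 genes with no filter, 1056 in DESeq2 and 143 to 504 with a further library left out had an adjusted p under 0.05. Of the factors, 2 passed with no filter, *Myf5* at 1.11 and *Mef2c* at -0.49 (log2), and 1 in DESeq2, *Mef2c* at -0.49. Adjusted p-values over these alternatives ranged from 0.00626 to 0.323 for *Myf5* and from 0.00503 to 0.395 for *Mef2c*. At an unadjusted p under 0.05, 3843 genes and 4 factors were called with no filter, and 1 to 4 factors with a further library left out. With library size alone, 1819 genes were higher and 517 lower at that threshold, beside 1415 and 877 with TMM. *Eya1* and *Eya4* also lost their calls with library size alone (adjusted p 0.0893 and 0.0824), and *Eya4* with a mean count above 10 (0.0527), with ranges of 0.0026 to 0.215 for *Eya1* and 2.34e-05 to 0.201 for *Eya4* over their alternatives. The cause of these changes was not tested.

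A replicate block, with replicate number as a term, called 632 genes at an adjusted and 1677 at an unadjusted p under 0.05 with all libraries, with 1 and 2 factors among them. *Myf5* passed at 1.46 (log2), and again as 1 factor without the library labelled Ctrl replicate 4. *Wwtr1*, *Eya1* and *Chrna1* lost their calls under the block in those 5 libraries. The labels number the replicates and name no pairing. The deviations of same-numbered libraries from their group means had correlations of -0.23 and -0.03. With 2 LSD1skm-/- libraries these deviations mirror each other, so the correlations cannot decide whether libraries were paired. Libraries without a partner add nothing to the group difference of the block.

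With the longest coding transcript as length, *Mef2a* made up 17.9%, *Mef2c* 56.4% and *Mef2d* 25.8% of the Ctrl Mef2 level, beside 12.8%, 42.9% and 44.2%. The shares of the bHLH factors were the same, since their 2 lengths are equal. With 2 LSD1skm-/- libraries the spread of that group is poorly known, and where 1 is left out the lone library is assumed to vary like the others.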
